A study of Homo sapiens with 6 samples.

Results

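The 10 rows described here are the collagen genes of a table of 1630 genes measured in U87MG cells, an established human glioblastoma line. They are all rows whose gene name starts with COL followed by a digit: COL1A2, COL3A1, COL5A3, COL7A1, COL8A2, COL9A2, COL12A1, COL14A1, COL25A1 and COL28A1. Of the 44 collagen chain genes looked for, the other 34 have no row, COL1A1 among them. Total RNA was sequenced from 2 groups of 3 libraries. One group carried short hairpin RNA against CREPT (shCREPT, labelled a CREPT knockdown) and the other carried a control hairpin (shControl, labelled NC). CREPT, encoded by RPRD1B, is a protein that associates with the tail of the largest subunit of RNA polymerase II. The labels name 1 cell line and no clone, passage or separate culture, and do not say whether the shCREPT libraries share 1 hairpin sequence, so the spread behind each p-value is that of these libraries and may be technical.

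Every one of the 1630 rows carries the authors' mark of a significant difference between these same groups, 657 up and 973 down in shCREPT. A difference in each collagen was therefore fixed by how the table was made, and so was a least size, since the smallest absolute log2 fold change in the authors' deposited table is 1.001. The values below are a description. RPRD1B has no row among these marked genes. Its own level was therefore not analysed here, and these rows do not show the knockdown itself. The values are the authors' normalized expression values. The sources used here do not state their scale or whether they are per length, so levels are compared between groups for 1 gene and never between genes. The reads behind a value are unknown, and the 1630 values sum to 31893.69 to 33330.8 per library.

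Collagens are trimers whose chains share a repeat of glycine followed by 2 other residues, and this repeat winds into the triple helix. Fibrillar collagens form the cross-striated fibrils of connective tissue, the FACIT collagens sit on the surface of those fibrils, and other types build networks, anchoring fibrils or membrane-bound proteins. In brain, fibrillar collagens are found mainly in the meninges and the walls of vessels, and gliomas with a mesenchymal expression profile are known to express them.

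The repeat can be read directly in the genes, because every glycine codon starts with GG. In the transcript with the longest coding sequence of each gene (GENCODE v29, GRCh38), the longest unbroken run of triplets that start with a GGN codon held 339 triplets in COL1A2, 343 in COL3A1 and 337 in COL5A3. In the other 7 genes that run was shorter, from 28 triplets in COL28A1 and 32 in both COL12A1 and COL14A1 to 113 in COL9A2. A coding exon of 54 bases is the typical unit of fibrillar collagen genes. Exons of exactly 54 bases made up 24 of 52 coding exons in COL1A2, 24 of 51 in COL3A1 and 31 of 67 in COL5A3. COL9A2 came close with 14 of 32, whereas COL7A1 had 5 of 118, COL12A1 4 of 65, COL14A1 4 of 47, COL25A1 4 of 38, COL28A1 2 of 34 and COL8A2 none of its 2. One such exon from a fibrillar gene, an anchoring fibril gene and a pair of FACIT genes is shown. They make the shared repeat visible across genes that changed in opposite directions. Each is the first in its gene in which every triplet starts with GGN, so its unbroken repeat follows from the choice. In COL7A1, 3 of the 5 exons of 54 bases met that condition. The sequences come from the GENCODE v29 transcripts, are written 5′ to 3′ on the coding strand (minus in all 4 genes), and capitals mark the GGN codon of each triplet.
COL5A3, coding exon 15, chr19:9996066-9996119, minus strand: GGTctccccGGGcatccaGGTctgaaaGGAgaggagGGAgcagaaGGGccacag
COL7A1, coding exon 48, chr3:48581706-48581759, minus strand: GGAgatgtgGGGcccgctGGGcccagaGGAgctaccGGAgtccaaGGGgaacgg
COL9A2, coding exon 5, chr1:40312731-40312784, minus strand: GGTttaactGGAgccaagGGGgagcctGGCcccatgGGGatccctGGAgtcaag
COL12A1, coding exon 54, chr6:75103757-75103810, minus strand: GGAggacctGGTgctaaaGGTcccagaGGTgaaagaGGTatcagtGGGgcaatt

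**Figure D1:**
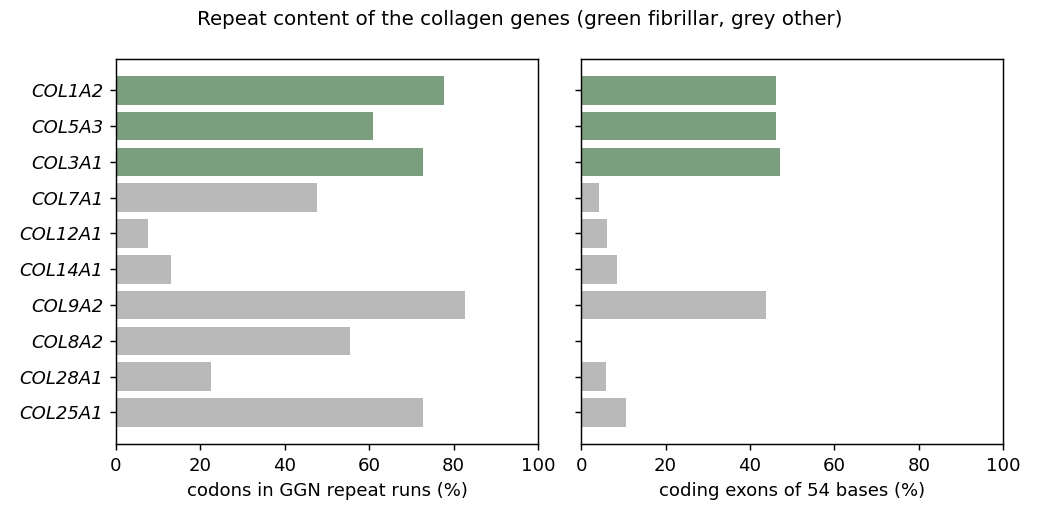
Share of codons that lie in runs of at least 10 consecutive GGN triplets (left, in %) and share of coding exons that are exactly 54 bases long (right, in %) for the 10 collagen genes, fibrillar genes in green and others in grey. The 3 fibrillar genes and COL9A2 have 43.8% to 47.1% exons of 54 bases, and COL12A1 has the smallest share of codons in such runs, 7.64%.

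In shCREPT cells COL1A2, the FACIT collagens COL9A2, COL12A1 and COL14A1 fell, while the minor fibrillar chain COL5A3 and the anchoring fibril collagen COL7A1 rose. Values were transformed as log2(value + 1) and groups compared with limma over all rows that reached 1 in 3 or more libraries, with Benjamini-Hochberg adjustment over the 1184 rows tested. Of the 10 collagens, 6 met that minimum and all 6 passed (adjusted p under 0.05), with 2 higher and 4 lower in shCREPT. COL5A3, 1 of the 2 higher, met the minimum only through the shCREPT libraries, where it is high. The background of this table is 97.9% of rows called, 40.6% called higher and 57.3% called lower, so passing says nothing particular about collagens. Down is the mark of 8 of the 10 in the authors' deposited table, against 59.7% of all rows. The groups did not overlap in any of the 10, against 93.3% of all 1630 rows.

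Among the fibrillar collagens, COL1A2 (ENSG00000164692, chromosome 7, 94394561 to 94431232, plus strand, GRCh38) codes for the alpha 2 chain of type I collagen, the main fibril former of most connective tissues, which pairs with chains made from COL1A1. COL1A2 had values of 431.57, 492.37 and 478.27 in shCREPT libraries, against 1084.21, 1099.05 and 1095.84 in shControl libraries. All 3 shCREPT libraries lay below the lowest shControl library, and the shCREPT values were spread more widely, with a coefficient of variation of 6.81% against 0.714% in shControl. The mean was 467 ± 31.8 in shCREPT and 1093 ± 7.81 in shControl (SD, n = 3 each), a level 2.34-fold lower in shCREPT. On the log2(value + 1) scale the change was −1.23 ± 0.08 (SE, limma adjusted p = 1.98e-05). When the libraries were rescaled by the median of ratios, the fall was smaller, at −0.34 (limma adjusted p = 0.0106). That rescaling moves the median of the tested rows that were detected in every library towards no change. It assumes that most rows are unchanged, which does not hold here, since every row was marked as changed. Its values, here and below, therefore show how far a size depends on scaling and are not a better estimate. An antisense gene, AC002074.1, overlaps COL1A2 and has no row. The sources used here do not say whether the libraries kept the strand, and without it reads from the pair cannot be told apart.

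COL5A3 (ENSG00000080573, chromosome 19, 9959561 to 10010471, minus strand) codes for the alpha 3 chain of type V collagen, a minor fibrillar collagen that is built into type I fibrils. COL5A3 had values of 2.49, 2.45 and 3.08 in shCREPT libraries, against 0.18, 0.15 and 0.29 in shControl libraries. It therefore went the other way from COL1A2, and it met the minimum value only through the shCREPT libraries. The mean was 2.67 ± 0.353 in shCREPT and 0.207 ± 0.0737 in shControl (SD, n = 3 each), a 12.9-fold rise. The log2(value + 1) change was 1.60 ± 0.10 (SE). No p-value is given from the fit with the minimum, and in the fit without it the limma adjusted p was 2.26e-05. Because the shControl level lies far below the pseudocount, the size of the change depends on it: a pseudocount of 0.1 gave 3.20 and a pseudocount of 5 gave 0.56. COL5A3 is overlapped by the antisense gene AC008742.1, which has no row.

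COL3A1 (ENSG00000168542, chromosome 2, 188974320 to 189012746, plus strand) codes for type III collagen, which forms fibrils together with type I in elastic tissues. It was listed at 0, 0.01 and 0.01 in shCREPT libraries, against 0.39, 0.11 and 0.05 in shControl libraries. The shCREPT values are at the last decimal that the table holds, and the highest shControl library had 0.39 where the lowest had 0.05. COL3A1 was too low for the minimum. Without the minimum its log2(value + 1) change was −0.22 ± 0.12 (SE, limma adjusted p = 0.112), which did not pass, and it passed with a pseudocount of 0.1 (−1.22, adjusted p = 0.0359). Leaving out shControl replicate 1 moved the change to −0.10 (adjusted p = 0.282). The authors' deposited table gives COL3A1 a log2 fold change of −3.50 with an adjusted p-value of 0.0475, close to the largest adjusted p-value in that table, 0.0497.

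**Figure D2:**
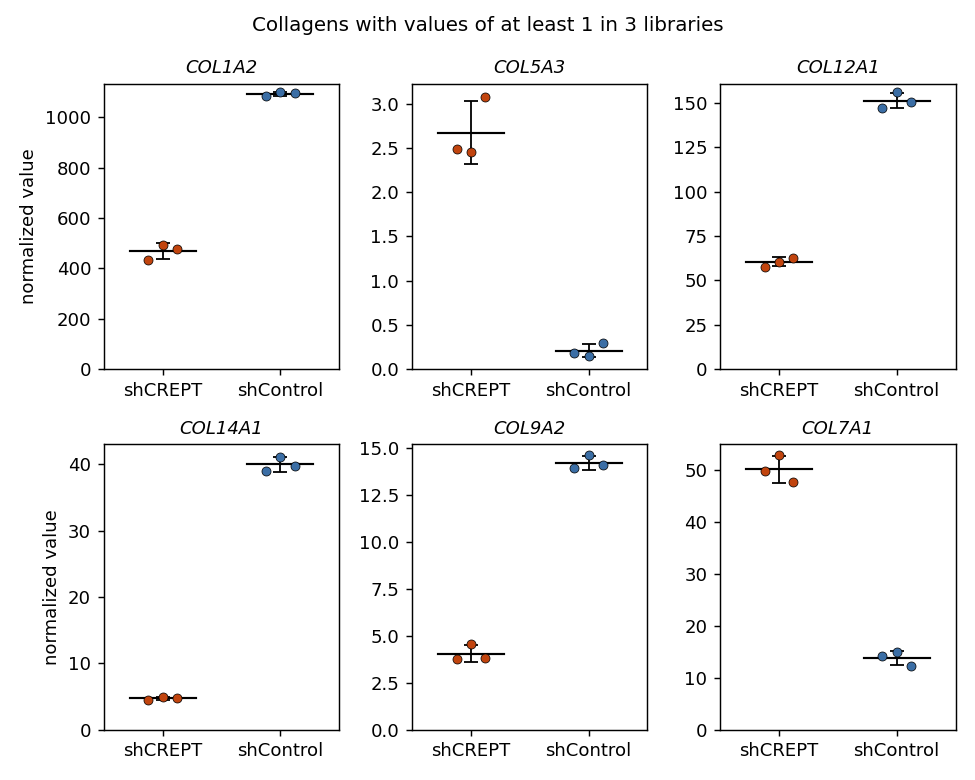
Normalized value (vertical axes, linear, starting at 0) of the 6 collagens that met the minimum value, in the 3 shCREPT libraries (orange, left) and the 3 shControl libraries (blue, right) of each panel. Points are libraries, the long line is the mean and the bars are 1 SD. COL5A3 and COL7A1 are higher in shCREPT and the other 4 are lower, with no overlap of groups in any panel.

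The 3 FACIT collagens with a row all fell. COL14A1 (ENSG00000187955, chromosome 8, 120059780 to 120372036, plus strand) codes for type XIV collagen, which binds the surface of type I fibrils. It had values of 4.47, 4.98 and 4.72 in shCREPT libraries, against 39.01, 41.17 and 39.74 in shControl libraries. Both groups were tight and far apart, and the mean was 4.72 ± 0.255 in shCREPT and 40.0 ± 1.10 in shControl (SD, n = 3 each), a level 8.46-fold lower. The log2(value + 1) change was −2.84 ± 0.08 (SE, limma adjusted p = 1.53e-06), and 12 of the 1184 tested rows fell further. Under median-of-ratios rescaling it was −2.03.

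COL12A1 (ENSG00000111799, chromosome 6, 75084326 to 75206051, minus strand) codes for type XII collagen, the close relative of type XIV on type I fibrils. COL12A1 had values of 57.76, 60.55 and 62.83 in shCREPT libraries, against 147.43, 156.01 and 150.42 in shControl libraries. All shCREPT libraries lay well below all shControl libraries, with means of 60.4 ± 2.54 in shCREPT and 151 ± 4.36 in shControl (SD, n = 3 each), a level 2.51-fold lower. The log2(value + 1) change was −1.31 ± 0.08 (SE, limma adjusted p = 1.34e-05), and −0.44 under median-of-ratios rescaling (adjusted p = 0.00224). The intervals of COL12A1 and COL14A1 did not overlap, at −1.50 to −1.12 for COL12A1 and −3.03 to −2.65 for COL14A1 (95% intervals from limma). The difference between them was not tested.

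COL9A2 (ENSG00000049089, chromosome 1, 40300487 to 40317813, minus strand) codes for a chain of type IX collagen, the FACIT collagen of cartilage, which coats type II fibrils there. COL9A2 had values of 3.75, 4.56 and 3.83 in shCREPT libraries, against 13.89, 14.62 and 14.1 in shControl libraries. The mean was 4.05 ± 0.446 in shCREPT and 14.2 ± 0.376 in shControl (SD, n = 3 each), a level 3.51-fold lower. Its log2(value + 1) change was −1.59 ± 0.09 (SE, limma adjusted p = 1.25e-05), and −0.82 under median-of-ratios rescaling. The type II chain COL2A1 and the partner chains COL9A1 and COL9A3 have no row, which does not tell whether they are expressed.

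COL7A1 (ENSG00000114270, chromosome 3, 48564073 to 48595267, minus strand) codes for type VII collagen, which forms the anchoring fibrils beneath the basement membrane of skin. COL7A1 had values of 49.85, 53 and 47.85 in shCREPT libraries, against 14.13, 15.05 and 12.37 in shControl libraries. All shCREPT libraries lay above all shControl libraries. The mean was 50.2 ± 2.60 in shCREPT and 13.9 ± 1.36 in shControl (SD, n = 3 each), a 3.63-fold rise. The log2(value + 1) change was 1.79 ± 0.10 (SE, limma adjusted p = 1.12e-05), with 51 of the 1184 tested rows rising further, and it was 2.63 under median-of-ratios rescaling.

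The remaining 3 collagens were under the minimum value. COL8A2 (chromosome 1, 36095236 to 36125220, minus strand) codes for a short network-forming collagen of the membrane below the corneal endothelium. It had values of 0.16, 0.25 and 0.18 in shCREPT libraries, against 0.78, 0.57 and 0.7 in shControl libraries. In a fit without the minimum, where 91.8% of the 1630 rows were called and 54.4% were called lower, COL8A2 fell with a log2(value + 1) change of −0.49 ± 0.08 (SE, limma adjusted p = 0.00154). It was −0.24 under median-of-ratios rescaling (adjusted p = 0.0364), and a pseudocount of 0.1 gave −1.40 where a pseudocount of 5 gave −0.13.

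COL28A1 (chromosome 7, 7356203 to 7535853, minus strand) codes for a collagen that in mouse lies in basement membranes around Schwann cells. It had values of 0.19, 0.24 and 0.34 in shCREPT libraries, against 0.56, 0.6 and 0.64 in shControl libraries. The groups were separate but close, and the change of −0.35 ± 0.08 without the minimum (SE, limma adjusted p = 0.00553) lost its call under median-of-ratios rescaling (−0.10, adjusted p = 0.328) and quantile normalization (−0.17, adjusted p = 0.0790).

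COL25A1 (chromosome 4, 108808725 to 109302752, minus strand) codes for a membrane-bound collagen of neurons that is also found in amyloid plaques. It was listed at 0, 0.02 and 0.01 in shCREPT libraries, against 0.1, 0.09 and 2.38 in shControl libraries. A single library, shControl replicate 3, therefore carries most of the shControl level, whose mean was 0.857 with it and 0.095 without it. The change without the minimum was −0.66 ± 0.44 (SE, limma adjusted p = 0.184) and did not pass, and it was −0.12 without shControl replicate 3 (adjusted p = 0.174). For COL25A1 the log2 ratio of the group means was −6.42, and −3.25 without that library, while the authors' deposited table gives a log2 fold change of −2.96. The corresponding log2 ratios of means for COL1A2 and COL12A1 were −1.23 and −1.33, and the authors' deposited table gives them log2 fold changes of −1.40 and −1.45.

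**Figure D3:**
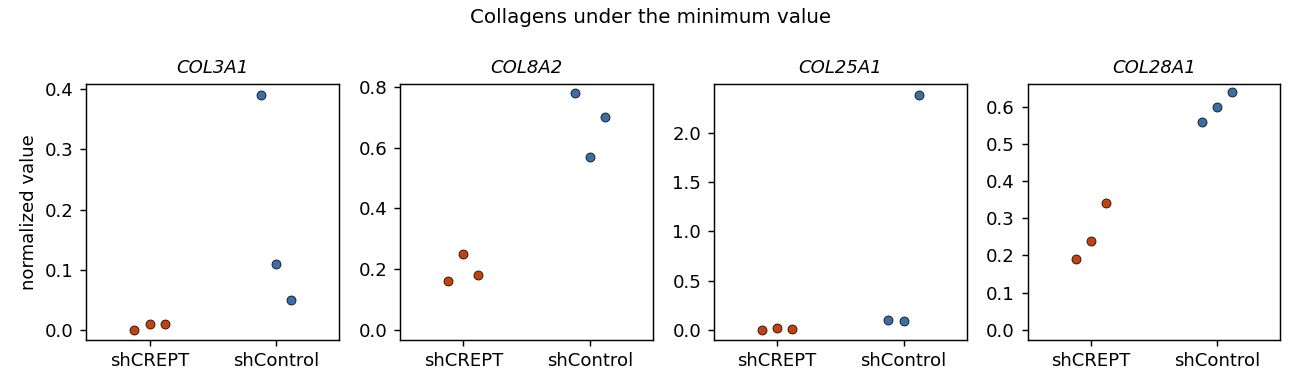
Normalized value (vertical axes, linear) of the 4 collagens under the minimum value, in the 3 shCREPT libraries (orange, left) and the 3 shControl libraries (blue, right). Points are libraries. The shControl libraries of COL25A1 hold 1 value of 2.38 and 2 values of at most 0.1, and those of COL3A1 run from 0.05 to 0.39.

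**Figure D4:**
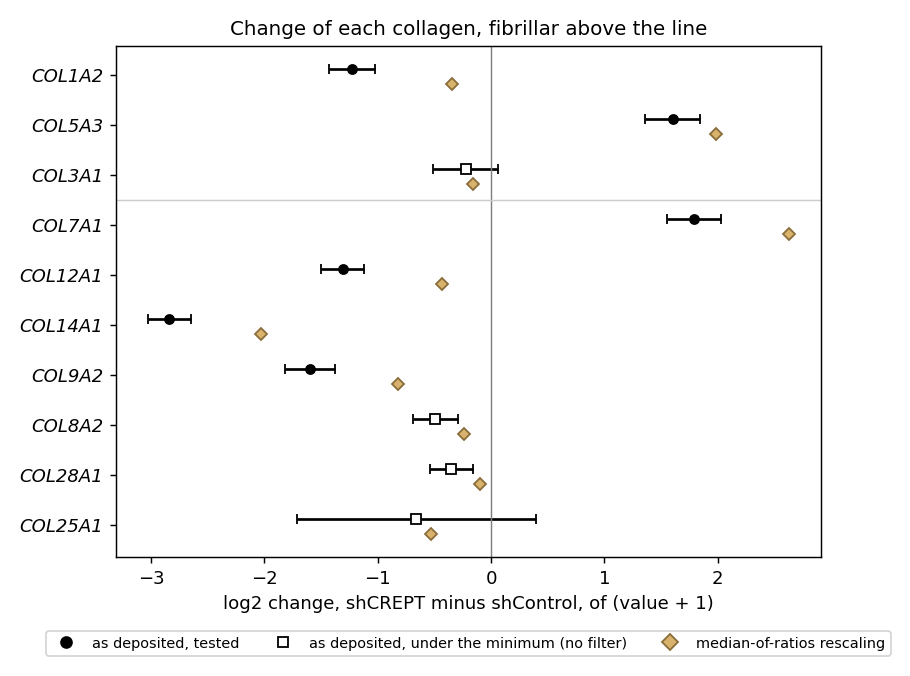
Change of each collagen on the log2(value + 1) scale (horizontal axis, shCREPT minus shControl), fibrillar genes above the grey line. Circles are tested genes and open squares are genes under the minimum value, fitted with no filter, both with 95% intervals from limma. Diamonds show the change after median-of-ratios rescaling. Each diamond lies to the right of its circle or square and on the same side of 0, as for COL1A2 at −0.34 against −1.23.

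Where the table of promoters allowed it, the 150 bases before the RefSeq start (GRCh38.p14) of the genes were searched on both strands for 3 core motifs. These were TATAAA, the core of the box that positions transcription starts, the letters CCAAT, which the factor NF-Y binds, and a GC box spelled GGGCGG, which SP1 binds. None of these motifs contains another. Of the 10 genes, 7 have an entry, and COL1A2, COL3A1 and COL14A1 have none. The windows of the 2 collagens that rose are shown with those of 2 that fell, written 5′ to 3′ on the gene's strand and ending at the base before the start. Capitals mark a match to one of the 3 motifs in either orientation. RefSeq and GENCODE v29 differ in some starts. The COL9A2 window lies wholly inside the gene as GENCODE v29 places it, and the COL25A1 window, not shown, lies partly inside.
COL5A3, chr19:10010505-10010654, minus strand: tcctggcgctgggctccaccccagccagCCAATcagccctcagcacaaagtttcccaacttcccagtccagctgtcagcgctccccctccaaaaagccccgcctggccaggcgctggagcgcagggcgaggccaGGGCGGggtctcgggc
COL7A1, chr3:48595330-48595479, minus strand: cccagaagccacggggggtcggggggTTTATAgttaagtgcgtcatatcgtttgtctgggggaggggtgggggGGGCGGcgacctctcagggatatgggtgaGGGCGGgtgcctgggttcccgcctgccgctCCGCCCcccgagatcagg
COL9A2, chr1:40317287-40317436, minus strand: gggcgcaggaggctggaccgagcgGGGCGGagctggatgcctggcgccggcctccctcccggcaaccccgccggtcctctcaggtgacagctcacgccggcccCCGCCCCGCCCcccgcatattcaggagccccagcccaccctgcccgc
COL12A1, chr6:75206054-75206203, minus strand: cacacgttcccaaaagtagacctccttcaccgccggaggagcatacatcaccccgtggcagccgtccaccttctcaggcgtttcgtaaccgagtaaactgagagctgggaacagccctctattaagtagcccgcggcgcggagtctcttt

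The rising genes both held the GC box, as did the falling COL9A2 and COL8A2, and differed in the other motifs. COL5A3 held 1 CCAAT match and 1 GC box match and no TATAAA, and COL7A1 held 1 TATAAA match on the reverse strand and 3 GC box matches and no CCAAT. Of the falling genes, COL9A2 held 3 GC box matches and COL8A2 held 5, some of which overlap within each gene. COL12A1, COL25A1 and COL28A1 held none of the 3 motifs. Over all 35116 windows of this length, 6.71% held the first motif in either orientation, 23.5% the second and 36.8% the third. A match here is a description of letters, not a bound site.

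Genes that modify, process, bind or receive collagen were taken from 6 lists, chosen with earlier results of these data known. In them, the tested crosslinking enzymes and 4 of 5 tested collagen-binding matrix proteins fell, as COL1A2 did. ITGA2, the 1 collagen receptor tested, rose, as COL5A3 and COL7A1 did. Of the 2 tested proteases, PLAU rose and MMP15 fell. Most members of every list have no row. Over all 1184 tested rows, 57.3% were called lower and 40.6% higher, so these counts say little about collagen-related genes as such. The median log2(value + 1) change over those rows was −0.76, and −0.12 after median-of-ratios rescaling.

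Of 22 genes of collagen modification and folding, 1 had a row. P3H2, which hydroxylates proline in collagen chains, fell, with values of 5.37, 6.49 and 5.96 in shCREPT libraries, against 23.82, 21.73 and 32.16 in shControl libraries (log2 change −1.94, limma adjusted p = 3.58e-05, and −1.13 under median-of-ratios rescaling). Of 17 genes of procollagen processing and crosslinking, 5 had a row and 3 were tested. All 3 fell, against 57.3% of all tested rows called lower. They are LOX, LOXL1 and LOXL3, the lysyl oxidases that start the crosslinks between collagen molecules, with a median log2 change of −1.75. Under median-of-ratios rescaling their changes were −1.47 for LOX, −0.88 for LOXL1 and −0.74 for LOXL3, all still past the threshold. LOXL1 had 56.03, 55.59 and 58.25 in shCREPT libraries, against 197.49, 182.97 and 199.79 in shControl libraries. LOXL4 and the transglutaminase TGM2 were under the minimum, and in the authors' deposited table LOXL4 is down with a log2 fold change of −1.16 and TGM2 is up with 2.03. Genes under the minimum, here and below, and TNXB were picked out with their values in view.

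Of 14 collagen receptors, 2 had a row. ITGA2, the alpha subunit of an integrin that binds collagen, rose, with values of 44.87, 48.7 and 51.29 in shCREPT libraries, against 23.8, 24.22 and 23.22 in shControl libraries (log2 change 0.99, limma adjusted p = 4.13e-05, and 1.85 under median-of-ratios rescaling). ITGA11, the alpha subunit of another collagen-binding integrin, was under the minimum and had 0.01, 0.05 and 0.35 in shCREPT libraries, against 0.85, 3.38 and 0.63 in shControl libraries. Of 16 genes on the list of collagen-degrading proteases, 4 had a row and 2 were tested. PLAU, which activates plasminogen and is not itself a collagenase, rose (log2 change 1.26, limma adjusted p = 2.10e-05). The membrane protease MMP15 fell (−1.05, adjusted p = 4.16e-05). Under median-of-ratios rescaling PLAU was 2.14 and MMP15 −0.41. The collagenases MMP1 and MMP13, which cut fibrillar collagen, were under the minimum in every library. MMP13 had 0.44, 0.51 and 0.23 in shCREPT libraries, against 0.05 in each shControl library, and MMP1 had 0.78, 0.5 and 0.65 in shCREPT libraries, against 0.22, 0.04 and 0.1 in shControl libraries.

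Of 25 collagen-binding matrix proteins, 5 had a row and all 5 were tested, with a median log2 change of −1.33. Of the 5, 4 were lower and 1 higher, against 57.3% and 40.6% of all tested rows. BGN and THBS1 fell furthest (log2 changes of −5.41 and −2.65). MATN2, a matrilin that links matrix fibrils, fell with values of 3.85, 5.01 and 5.48 in shCREPT libraries, against 14.93, 11.63 and 14.05 in shControl libraries, and its log2 change of −1.33 was −0.55 under median-of-ratios rescaling. VCAN, a large proteoglycan, had a log2 change of −0.98 (limma adjusted p = 6.94e-05) and lost its call under median-of-ratios rescaling (−0.10, adjusted p = 0.366). TNXB, a tenascin that binds collagen fibrils, was the 1 that rose, with 2.98, 3.52 and 2.23 in shCREPT libraries, against 0.95, 1.16 and 1.17 in shControl libraries, and its log2 change of 0.89 was 1.43 under that rescaling. It has a partial copy, TNXA, with which it can share reads. Of 17 genes of TGF-beta signalling, a pathway known to induce collagen genes, TGFB3 alone had a row and fell (log2 change −1.35, limma adjusted p = 3.58e-05, and −0.54 under median-of-ratios rescaling).

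**Figure D5:**
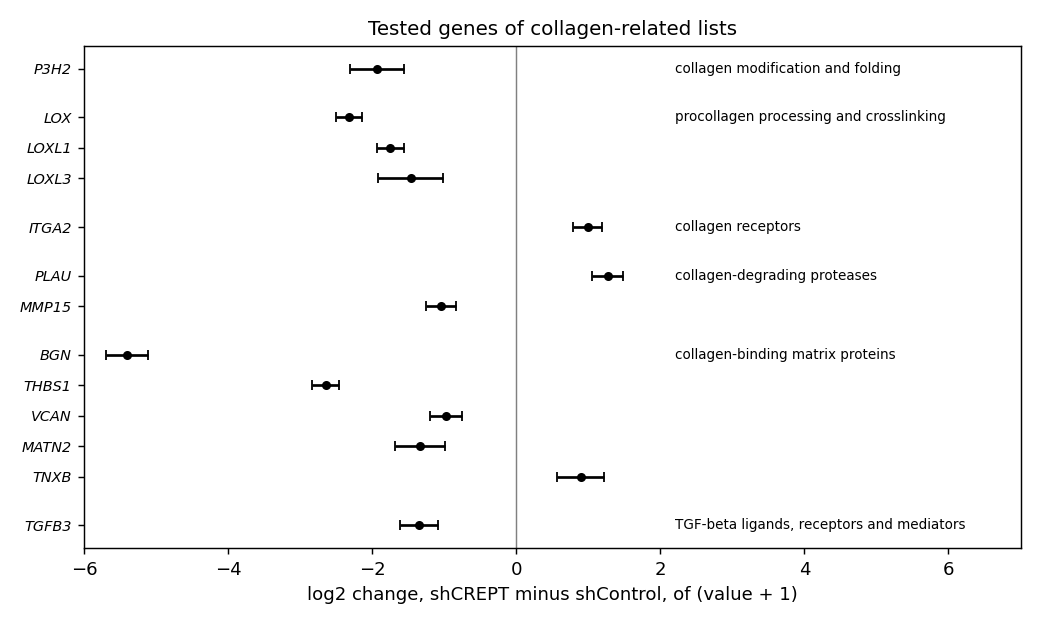
Change of the 13 tested genes from the 6 lists on the log2(value + 1) scale (horizontal axis, shCREPT minus shControl), with 95% intervals from limma, grouped by list. ITGA2, PLAU and TNXB lie right of 0 and the other 10 lie left of 0, down to BGN at −5.41.

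Markers of cell types moved in the same libraries, and their part in the collagen values was not tested. Every marker with a row is marked down in the authors' deposited table, as are 59.7% of all 1630 rows. Over all 1184 tested rows 57.3% were called lower, so the direction says little about these markers as such. Of 10 astrocyte and glioma markers, GFAP, S100B and SLC1A3 had a row and were lower. GFAP had a mean of 45.5 in shCREPT and 434 in shControl. SLC1A3 had a mean of 36.5 in shCREPT and 78.4 in shControl, and lost its call under median-of-ratios rescaling. S100B, at 0.06, 0 and 0.21 in shCREPT libraries, against 3.12, 2.27 and 2.66 in shControl libraries, met the minimum only through shControl, where it is high. Of 10 fibroblast markers the 2 with a row were COL1A2 and COL3A1 themselves, and DCN, LUM, PDGFRB and THY1 have none. The endothelial markers CDH5 and KDR, 2 of 7, were lower as well. CDH5 had a mean of 7.15 in shCREPT and 33.3 in shControl. KDR had a mean of 5.27 in shCREPT and 11.1 in shControl, and lost its call under that rescaling. TAGLN was the 1 of 8 pericyte and smooth muscle markers with a row, at 0.42 to 0.62 in shCREPT libraries, against 0.94 to 2.15 in shControl libraries, and none of 6 chondrocyte markers had one. Rows exist only for genes that the authors marked, so a missing row does not show that a marker is absent. All 6 libraries come from 1 cell line, so the list names are names of markers, not of cell types known to be present. In bulk RNA, a change in every cell and a change in the share of cells that express a gene cannot be told apart.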

How the data were processed

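The labels' protocols name a column kit for RNA and NEBNext Ultra reagents for libraries. HISAT2, HTSeq and GRCh38 were used, per the submitters' processing notes, with no version or role. The deposited table holds, per the file headers, a normalized signal value per library, which the authors wrote with 2 decimals, and a fold change (a ratio) by the authors with its log2 and its raw and adjusted p-value. The sources used here do not give the normalization. Depth is unknown, so precision rests on the spread between libraries. For each gene, limma draws the spread behind its SE, interval and p-value in part from all rows fitted.

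From these values, rows with at least 1 in at least 3 libraries (1184 tested, 446 left out) were transformed as log2(value + 1) and compared with limma 3.58.1 in R 4.3.3, two-sided, with no covariate, at an adjusted p of 0.05 (Benjamini-Hochberg). The smallest exact two-sided permutation p for 3 against 3 is 0.1. This scale understates changes of low genes. The fit was tested on simulated data. Alternatives were other pseudocounts (0.1, 5), no minimum, a minimum of 10, median-of-ratios rescaling, quantile normalization, a block for the replicate number, trend and robust options and each library left out. The fits without a minimum combined with these, for 4 low collagens, were chosen after seeing the data. No 2 libraries were repeats: 96.0% or more of genes differed. All 10 collagens are named. From each list, up to 4 tested genes with the smallest adjusted p are named, and others are said to be outside that rule. Members and lists were chosen with earlier results of these data known. Python 3.11.15 was used for other steps. Gene positions came from GENCODE v29 and promoters from RefSeq (GRCh38.p14).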

Additional observations from a re-analysis of the deposited data

How the results depend on the processing

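The 6 tested collagens kept their direction and their call under every setting that tested them. With a minimum of 10 in 3 libraries COL5A3 was no longer tested, which left 1 collagen higher and 4 lower, and 214 rows higher and 271 lower over the whole table, since 487 rows were tested. Median-of-ratios rescaling raised shCREPT by 0.89 (log2) relative to shControl and called 371 rows lower over the whole table, against 678 without it, but still called 2 collagens higher and 4 lower. Without a minimum 6 collagens were called lower. Leaving out 1 library at a time called 475 to 481 rows higher and 662 to 672 lower, and 2 and 4 collagens each time. The replicate block called 479 rows higher and 677 lower and changed no collagen's call. Libraries with the same number showed no shared deviation (r of −0.109, 0.018 and −0.179), so the numbers were not treated as pairs. Among the 4 low collagens, COL3A1 passed with a pseudocount of 0.1, and COL28A1 lost its call under both rescalings, at −0.10 and −0.17. The size of their changes followed the pseudocount: with 0.1 they ran from −0.99 for COL28A1 to −2.05 for COL25A1, and with 5 from −0.05 for COL3A1 to −0.20 for COL25A1. COL8A2 was −0.32 under quantile normalization. The cause was not tested. No limit can be set from depth, which is unknown. The deposited rows hold no unchanged gene, so the rescalings have no unchanged rows to rest on.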

Other observations

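Over the 6 libraries, the 3 tested genes whose log2(value + 1) followed COL1A2 most closely were FAM13C, CDH11 and HEPH, with Pearson's r of 0.9997, 0.9995 and 0.9992. CDH11, a cadherin of mesenchymal cells, had values of 27.58, 32.63 and 30.91 in shCREPT libraries, against 76.2, 75.32 and 73.85 in shControl libraries. In a table picked for a difference between 2 groups such values are common, and 161 of 1183 genes had an r above 0.99 with COL1A2. They are a description of 6 libraries that share 2 group levels.

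Rows of other genes within 500000 bases of a collagen gene were looked up after the data were seen. There were 14 such rows around 8 of the 10 collagens. In the authors' deposited table, 10 of the 14 changed in the direction of their collagen and the others went the opposite way. Down is the mark of 59.7% of all 1630 rows and of 8 of the 10 collagens, so this count says little about neighbours as such. CFI and ENSG00000285330, both near COL25A1 and both counted as matches, overlap each other on the same strand. The pair closest to a collagen are given here. The nearest was UCN2, which codes for the peptide urocortin 2 and lies 300 bases beyond the end of COL7A1 on the same strand. UCN2 had 6.62, 7.67 and 6.44 in shCREPT libraries, against 1.41, 1.43 and 1.43 in shControl libraries (log2 change 1.70, limma adjusted p = 9.18e-06), and so rose, as COL7A1 did. Every row of the table had been marked for a difference between these groups. DEPTOR, which codes for an inhibitor of the kinase mTOR, ends 8867 bases before COL14A1 on the same strand. DEPTOR had 0.16, 0.52 and 0.67 in shCREPT libraries, against 2.62, 2.84 and 2.82 in shControl libraries, and so was lower, like COL14A1. It met the minimum value only through the shControl libraries, where it is high, and no test is given. Whether reads that run on from one gene into the next add to these values was not tested.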
